A study of Homo sapiens with 6 samples.

Results

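AP-1 and immediate early genes were followed in HEC-1B, a human endometrioid carcinoma cell line. The members are 10 genes taken by symbol (FOS, FOSB, FOSL1, FOSL2, JUN, JUNB, JUND, ATF3, EGR1 and IER2), out of 23284 gene symbols with a value in the 6 libraries. All 10 members were found and all 10 passed the filter on low values, which asked for at least 1 FPKM (fragment counts scaled for transcript length and library size) in at least 2 libraries and kept 12135 genes. FOSB passed only through 2 libraries, 1 in each parental group.

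The study sorted these cells by aldehyde dehydrogenase, an enzyme activity by which stem-like tumour cells are often isolated, and asked how expression differs with and without an accelerated passage from an ALDH1A1-low to an ALDH1A1-high state. The first group (high-potential accelerated, 2 libraries) is labelled as having high ALDH potential and as ALDH-high with accelerated passage. The second (parental accelerated, 2 libraries) is also labelled ALDH-high with accelerated passage and carries only the name of the line. The third (parental high-to-low, 2 libraries) carries only the name of the line and is labelled as passing from high to low ALDH. How the high-potential cells were derived, whether they are 1 clone and whether replicates are separate cultures is stated nowhere in the labels, so each p-value rests on a spread between libraries that may be technical only. No high-potential high-to-low group was analysed, so the high-potential label and the transition cannot be told apart when the first group is set against the third.

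AP-1 is a dimer of basic leucine zipper proteins. Jun proteins pair with each other or with Fos proteins, whereas Fos proteins need a partner, and the dimer binds DNA at short palindromic sites. FOS, FOSB, JUN, JUNB, EGR1, IER2 and ATF3 are immediate early genes: serum, growth factors or stress switch them on within minutes, through kinases acting on factors already present in the cell, and their mRNAs are short-lived. FOSL1 and FOSL2 encode the Fra proteins, which are induced later and last longer, and FOSL1 is itself a target of AP-1 and of sustained MAP kinase signalling in carcinoma cells. JUND is expressed more constantly than the other Jun genes.

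The promoters of the 4 members with the greatest ratio of highest to lowest FPKM over the 6 libraries (EGR1 61.7, FOSB 61.6, FOS 27.8 and JUN 17.8, that of FOSB over a lowest value of about 1 fragment) are printed to show the kind of element known to drive an immediate early response. RefSeq (GRCh38.p14, a later build than the hg19 of the deposited values) gave a window for 9 of the 10 members, with none for FOSL1. The 250 bases before the start of EGR1, FOS, FOSB and JUN lie at chr5:138465229-138465478 (plus strand), chr14:75278578-75278827 (plus strand), chr19:45467746-45467995 (plus strand) and chr1:58784048-58784297 (minus strand). Capitals mark matches, on either strand, to the CArG box, which binds serum response factor, to TGACGT, the core of the cAMP response element, or to TGACNTCA, the form of that element that ATF and Jun proteins bind.
EGR1: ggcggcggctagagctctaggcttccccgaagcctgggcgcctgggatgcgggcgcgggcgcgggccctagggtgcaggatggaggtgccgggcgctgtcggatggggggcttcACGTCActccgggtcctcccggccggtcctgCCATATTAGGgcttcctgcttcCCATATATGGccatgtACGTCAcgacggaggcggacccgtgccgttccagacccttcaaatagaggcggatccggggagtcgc
FOS: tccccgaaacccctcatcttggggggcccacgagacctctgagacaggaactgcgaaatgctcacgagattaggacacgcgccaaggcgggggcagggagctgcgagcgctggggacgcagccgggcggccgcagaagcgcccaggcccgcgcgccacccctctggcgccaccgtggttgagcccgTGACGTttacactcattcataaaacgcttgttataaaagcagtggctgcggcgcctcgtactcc
FOSB: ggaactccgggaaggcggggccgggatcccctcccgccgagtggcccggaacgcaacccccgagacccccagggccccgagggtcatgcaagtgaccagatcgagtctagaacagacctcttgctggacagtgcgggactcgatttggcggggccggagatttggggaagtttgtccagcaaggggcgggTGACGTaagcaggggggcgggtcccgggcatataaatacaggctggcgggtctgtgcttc
JUN: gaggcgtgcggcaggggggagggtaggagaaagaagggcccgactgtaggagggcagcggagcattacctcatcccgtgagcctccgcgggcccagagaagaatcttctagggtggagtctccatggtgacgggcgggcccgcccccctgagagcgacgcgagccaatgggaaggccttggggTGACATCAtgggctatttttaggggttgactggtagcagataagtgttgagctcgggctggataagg
The EGR1 window held 2 CArG boxes, at -105 to -96 and -83 to -74 from the start, and 2 TGACGT matches. The FOS and FOSB windows held TGACGT at -64 to -59 and -60 to -55, and the JUN window held TGACATCA, a match to TGACNTCA, at -67 to -60. Over the 9 members with a window, TGACGT was present in 5 (FOS, FOSB, FOSL2, JUND and EGR1), against 7.10% of all 35116 windows of the same length. TGACNTCA was present in 3 (JUN, JUND and ATF3), against 6.87% of all windows, and its match in JUND, TGACGTCA, also holds TGACGT. ATF3 had a further start, whose window held no match. Members are counted by gene and the background by window. Within these windows the CArG box was present in EGR1 alone among the 9 members, against 1.16% of all windows. TGANTCA, a pattern with any middle base that includes the AP-1 site itself, was in 0 of the 9, which leave out FOSL1, against 6.57%. Sites further than 250 bases from the start were not searched, so a member without a match may have the element elsewhere. These are matches of letters in a short window and say nothing of the factor.

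The libraries were of similar depth: relative to high-potential replicate 1, depth recovered from low values was 0.807 to 1.07, and 1 fragment on 1 kilobase of transcript was worth 0.0917 to 0.125 FPKM. The mRNA of ALDH1A1, the aldehyde dehydrogenase gene the study names, was 353 and 304 FPKM in high-potential cells, 26.7 and 317 in parental accelerated cells and 28.4 and 9.44 in high-to-low cells. Parental accelerated replicate 1, labelled ALDH-high, thus lies inside the high-to-low range for ALDH1A1 mRNA. The label is of sorting by enzyme activity and the value is of the mRNA of 1 gene, so they need not match. Results for that group are given with and without this library. Of 9 markers of endometrial epithelium 7 reached 1 FPKM, with summed levels of 555 to 739 FPKM, whereas CDH1 (E-cadherin) stayed at or below 0.0868 FPKM and CLDN3 at or below 0.825. Marker sums stayed at or below 2.56 FPKM for 6 leukocyte, 0.603 for 6 fibroblast and 1.07 for 5 endothelial genes, with CD3E, COL3A1, DCN and PECAM1 listed at 0 in each library.

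FOSL1 was the member that differed most clearly between the groups, and FOSL2 levels lay the other way. FOSL1 was 22.3 and 23.6 FPKM in high-potential cells, 55.0 and 50.7 FPKM in parental accelerated cells and 63.9 and 85.1 FPKM in high-to-low cells. Both high-potential libraries were lower than each of the 4 parental libraries, and both parental accelerated libraries were lower than both high-to-low libraries. Against high-to-low, FOSL1 fell by 1.64 in log2(FPKM + 1) in the high-potential cells (SE 0.204, limma adjusted p = 0.0334), the 1 member of 10 that passed, where 0.799% of all 12135 genes passed, 0.396% higher and 0.404% lower. With a replicate block it also passed, beside 7.78% of all genes (2.48% higher and 5.3% lower). The call was lost without any 1 of the 4 libraries compared, with a log2 difference between -1.85 and -1.44, and without the filter on low values, where the limma adjusted p was 0.0568, and with a term for the number in the descriptions, where it was 0.0667; the alternatives spanned 0.0143 to 0.302. In these bulk samples fewer cells with the mRNA and less mRNA per cell cannot be told apart.

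Against parental accelerated cells the FOSL1 difference was -1.17 (SE 0.204, limma adjusted p = 0.0865) and did not pass. With a term for the replicate number, along which libraries of different groups deviated together, its limma adjusted p was 0.0304 (the alternatives spanned 0.0304 to 0.548), and 4.5% of all genes then passed (1.53% higher and 2.97% lower). That term moved the count of called members to 1 of 10, against 0 without it. Between the parental groups the FOSL1 difference was -0.47 (SE 0.204, limma adjusted p = 1). Among the libraries whose description number starts with 18, FOSL1 was 23.6 FPKM in the high-potential and 50.7 FPKM in the parental accelerated one. The difference from parental accelerated cells was -1.11 without replicate 1 of that group, whose ALDH1A1 mRNA lies in the high-to-low range.

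FOSL2 was 21.4 and 28.6 FPKM in high-potential cells, 14.0 and 6.05 FPKM in parental accelerated cells and 12.5 and 11.6 FPKM in high-to-low cells. Both high-potential libraries were above all 4 parental libraries. The log2 difference was 1.33 against parental accelerated cells (SE 0.373, limma adjusted p = 0.192) and 0.98 against high-to-low cells (SE 0.373, limma adjusted p = 0.243), and neither passed. Between the parental groups it was -0.34 (limma adjusted p = 1), with the libraries overlapping.

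The ratio of FOSL1 to FOSL2 within a library does not depend on how libraries were scaled. It was 1.04 and 0.825 in high-potential cells, 3.93 and 8.38 in parental accelerated cells and 5.10 and 7.36 in high-to-low cells. FOSL1 thus had 3.93 or more times the FPKM of FOSL2 in every parental library, and both genes stood near the same level in high-potential cells. The high-potential libraries do not overlap the parental ones, whereas the parental groups overlap each other. The smallest exact permutation p is 0.0667 for 2 libraries against 4 and 0.333 for 2 against 2, and the genes were chosen with results known, so no test is given.

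**Figure D1:**
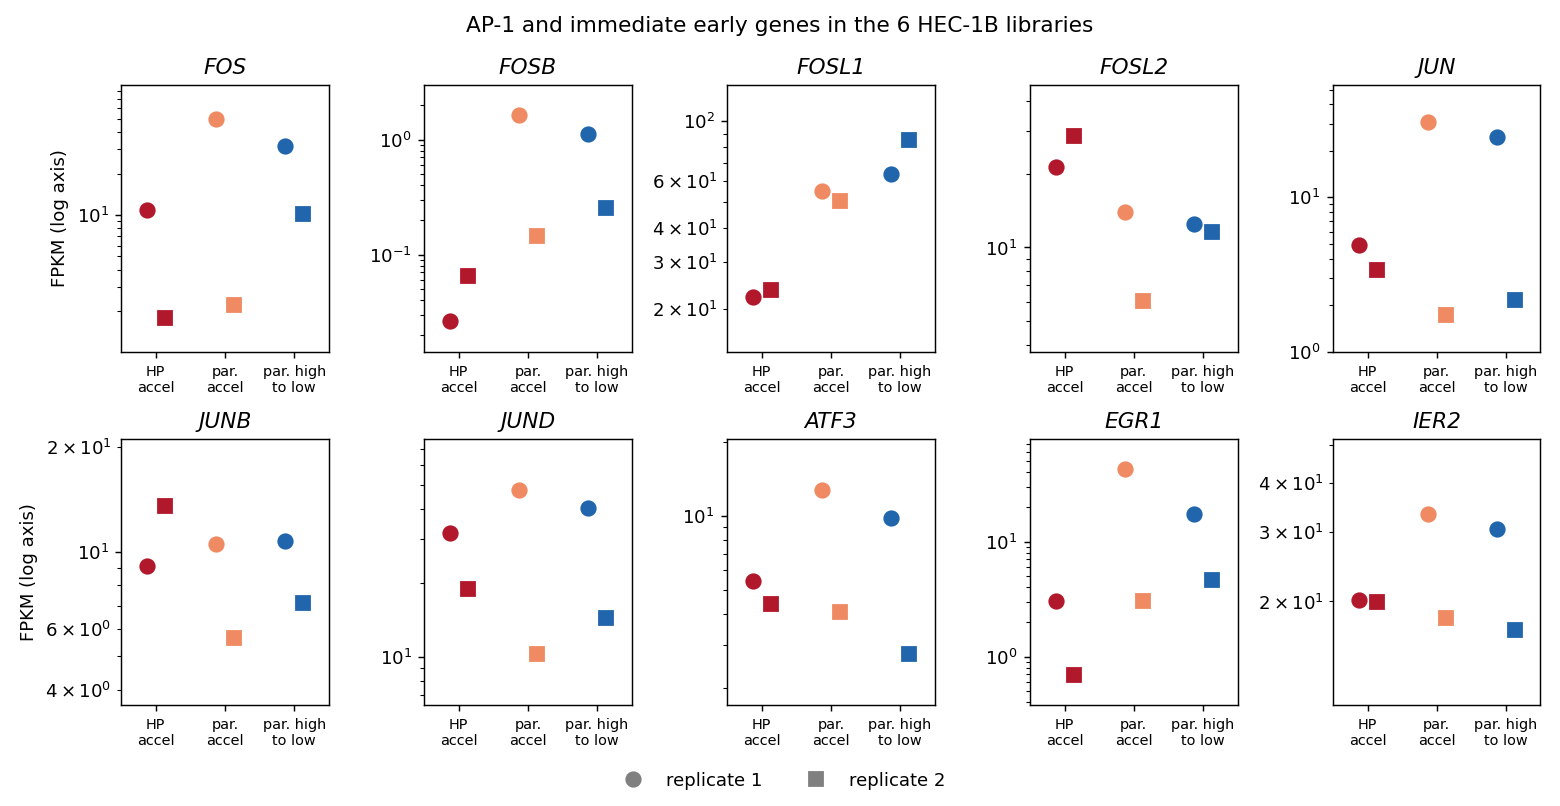
FPKM on a log axis for each of the 10 genes in the 6 libraries; circles are replicate 1 and squares replicate 2 of the high-potential accelerated (HP accel), parental accelerated (par. accel) and parental high-to-low groups. FOSL1 separates the high-potential libraries (22.3 and 23.6 FPKM) from the parental ones (50.7 to 85.1 FPKM), whereas FOS, JUN and EGR1 separate the 2 libraries within each parental group. FOS and EGR1 also separate the 2 high-potential libraries, by 6.09 and 4.39 times.

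The other members of the Fos family, FOS and FOSB, varied widely between the libraries of each parental group. FOS, the classic serum-induced partner of Jun, was 10.9 and 1.79 FPKM in high-potential cells, 49.9 and 2.2 FPKM in parental accelerated cells and 31.6 and 10.2 FPKM in high-to-low cells. Replicate 1 was the higher in all 3 groups, by 6.09, 22.6 and 3.11 times, and the groups overlap. High-potential cells differed by -1.15 from parental accelerated (SE 1.36, limma adjusted p = 0.766) and by -1.73 from high-to-low cells (SE 1.36, limma adjusted p = 0.551) in log2(FPKM + 1), with a standard error about as wide as the differences. Without parental accelerated replicate 1 the first of these was 0.85.

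FOSB, a close relative of FOS, was low throughout. It was 0.0263 and 0.0651 FPKM in high-potential cells, about 1 and 2 fragments, 1.62 and 0.144 FPKM in parental accelerated cells, about 56 and 5 fragments, and 1.11 and 0.253 FPKM in high-to-low cells, about 46 and 9 fragments. Both high-potential libraries were below all 4 parental libraries, at values where single fragments count. The gene was kept only through 1 library of each parental group, so the filter itself favours this direction. The log2(FPKM + 1) differences, which understate changes of a gene this low, were -0.73 against parental accelerated (limma adjusted p = 0.55) and -0.64 against high-to-low cells (limma adjusted p = 0.52), and 0.09 between the parental groups (limma adjusted p = 1). With a pseudocount of 0.1 they were -2.17 (limma adjusted p = 0.492), -2.18 (limma adjusted p = 0.403) and -0.02 (limma adjusted p = 1); over all alternatives the adjusted p spanned 0.258 to 0.842, 0.281 to 0.753 and 0.976 to 1. FOSB overlaps ERCC1 on the opposite strand in the GENCODE 29 annotation, as do FOSL2, JUNB and IER2 other genes, and the library kit does not record strand, so reads from such stretches cannot be assigned.

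In the Fos family as a whole FOSL1 held the greatest part of the summed FPKM in each parental library, with 45.7 and 85.8% in parental accelerated and 58.5 and 79.5% in high-to-low libraries. In the high-potential libraries FOSL1 held 40.8 and 43.7% and FOSL2 39.2 and 52.9%. FOSL2 held 11.6 and 10.2% in parental accelerated and 11.5 and 10.8% in high-to-low libraries, an even share beside the wide range of FOS. FOS held 20.0 and 3.31% in high-potential cells, 41.4 and 3.73% in parental accelerated cells and 29 and 9.50% in high-to-low cells.

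**Figure D2:**
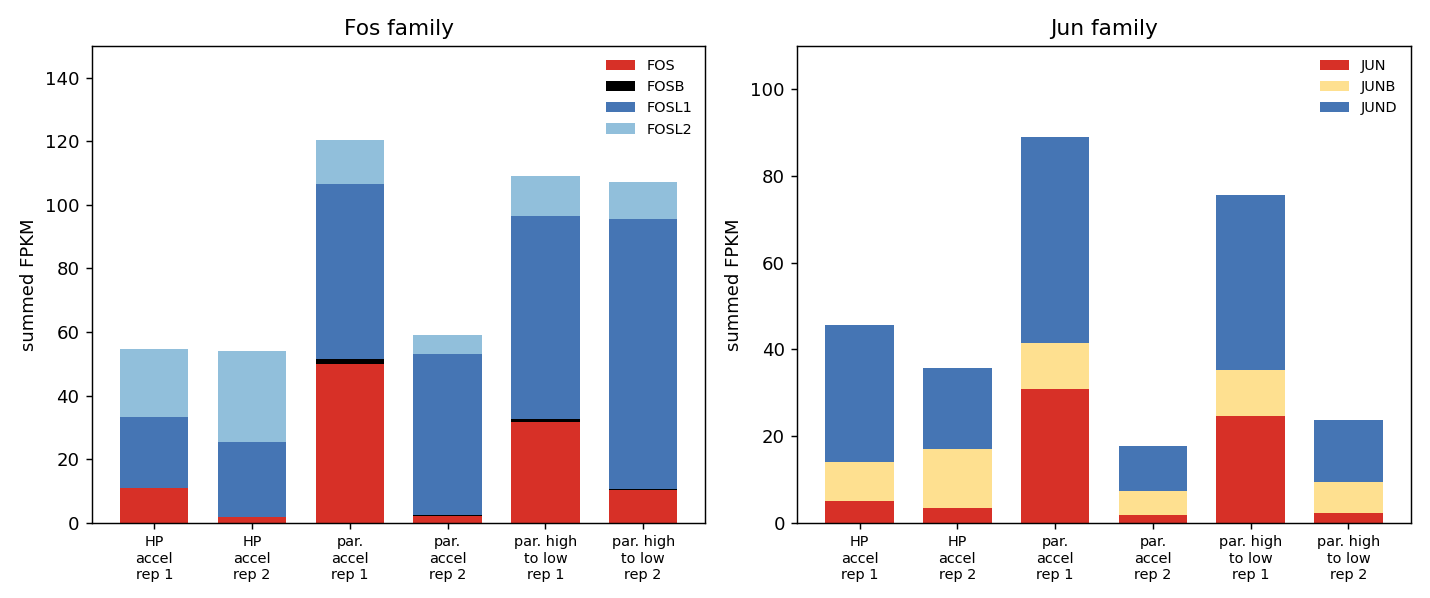
Stacked FPKM of the Fos family (left) and Jun family (right) in each library, with 1 bar per library and colours for the genes. FOSL2 takes 39.2 and 52.9% of the Fos family in high-potential cells and 10.2 to 11.6% in the parental ones, and the Jun total is highest in replicate 1 of both parental groups, at 88.9 and 75.5 FPKM.

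Among the Jun genes, JUN itself varied widely, JUND less and JUNB least. JUN, the strongest activator of the family, was 4.90 and 3.40 FPKM in high-potential cells, 30.9 and 1.73 FPKM in parental accelerated cells and 24.6 and 2.18 FPKM in high-to-low cells. Replicate 1 of each parental group stood above 20 FPKM in JUN and the other 4 libraries stayed at or below 4.90 FPKM. The difference between high-potential and parental accelerated cells was -0.87 (SE 1.33, limma adjusted p = 0.827) and 0.90 without parental accelerated replicate 1. Against high-to-low cells it was -0.82 (SE 1.33, limma adjusted p = 0.792), and between the parental groups it was 0.05 (SE 1.33, limma adjusted p = 1).

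JUND was 31.7 and 18.9 FPKM in high-potential cells, 47.5 and 10.3 FPKM in parental accelerated cells and 40.3 and 14.4 FPKM in high-to-low cells. It held 52.9 to 69.4% of the Jun family's FPKM in every library and so was its most abundant member throughout. Group means were nearly the same, at 25.3 ± 9.05 FPKM in high-potential cells, 28.9 ± 26.3 FPKM in parental accelerated cells and 27.3 ± 18.3 FPKM in high-to-low cells (SD, n = 2 each), with log2 differences of 0.13 (limma adjusted p = 0.965), 0.02 (limma adjusted p = 0.991) and, between the parental groups, -0.11 (limma adjusted p = 1). JUNB, which restrains growth in some cells and dimerizes like JUN, was 9.10 and 13.5 FPKM in high-potential cells, 10.5 and 5.66 FPKM in parental accelerated cells and 10.7 and 7.13 FPKM in high-to-low cells. Its log2 differences were 0.46 against parental accelerated (limma adjusted p = 0.63) and 0.31 against high-to-low cells (limma adjusted p = 0.694), and the libraries overlap in both.

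ATF3, EGR1 and IER2 are partners or companions of AP-1 in the early response. ATF3, a stress-induced zipper protein that pairs with Jun, was 5.45 and 4.37 FPKM in high-potential cells, 12.7 and 4.05 FPKM in parental accelerated cells and 9.81 and 2.75 FPKM in high-to-low cells. The high-potential libraries lie inside the range of both parental groups, with log2 differences of -0.50 (limma adjusted p = 0.78) and -0.11 (limma adjusted p = 0.948).

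EGR1, a zinc finger factor induced through serum response factor, was 3.04 and 0.693 FPKM in high-potential cells, 42.7 and 3.04 FPKM in parental accelerated cells and 17.4 and 4.68 FPKM in high-to-low cells. The lowest value rests on about 17 fragments and the highest on about 1242. Its differences were the widest of the members: -2.35 against parental accelerated cells (SE 1.15, limma adjusted p = 0.428) and -1.97 against high-to-low cells (SE 1.15, limma adjusted p = 0.423), neither passing. With a term for the replicate number the limma adjusted p values were 0.0651 and 0.0734, and the alternatives spanned 0.0651 to 0.843 and 0.0734 to 0.779. The first difference was -0.63 without parental accelerated replicate 1.

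IER2, a short-lived nuclear protein of the early response, was the steadiest member. It was 20.2 and 19.9 FPKM in high-potential cells, 33.4 and 18.2 FPKM in parental accelerated cells and 30.5 and 16.9 FPKM in high-to-low cells. The log2 differences of high-potential cells were -0.29 from parental accelerated (limma adjusted p = 0.788) and -0.18 from high-to-low cells (limma adjusted p = 0.844).

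Of the 10 members, 0 passed between high-potential and parental accelerated cells by limma, where 0.494% of all genes passed (0.288% higher and 0.206% lower), and 2 (FOSL1 and FOSL2) had an unadjusted p under 0.05, as did 14.3% of all genes. Libraries did not overlap for 3 members in that comparison (FOSB and FOSL1 lower, FOSL2 higher in the high-potential cells), against 43.4% of all genes (21.1% higher and 22.3% lower). Against high-to-low cells they did not overlap for 4 members (FOSB, FOSL1 and EGR1 lower, FOSL2 higher), against 51.1% of all genes (24.7% higher and 26.4% lower). Against all 4 parental libraries together they did not overlap for 3 members (FOSB and FOSL1 lower, FOSL2 higher), against 32.8% of all genes (15.3% higher and 17.5% lower). These counts are no more than the share of all genes gives. FOSB passed the filter on low values only through 1 library of each parental group, so its place among them was partly set by the filter. Median log2 differences of the members were -0.61 and -0.41, beside 0.00 and -0.01 over all genes; both comparisons use the same high-potential libraries. Without parental accelerated replicate 1 the differences from that group were 1.87 for FOSL2, 0.86 for JUNB, 1.18 for JUND, 0.22 for ATF3 and 0.13 for IER2, and 0 of the 9 members tested passed, FOSB having dropped below the filter.

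Between the parental accelerated and high-to-low groups 0 of 10 members passed by limma, where 0.0165% of all genes passed, and 0 had an unadjusted p under 0.05, where 0.972% of all genes did. The median difference of the members was -0.03, beside -0.02 over all genes. Libraries did not overlap for FOSL1 alone (1 of 10, lower), against 24.1% of all genes (11.4% higher and 12.7% lower). Parental accelerated replicate 1 has ALDH1A1 mRNA in the high-to-low range. Without it the differences between the parental groups were -2.57 for FOS, -1.72 for JUN, -1.16 for JUND and -1.34 for EGR1. They were the widest of the members. Parental accelerated replicate 2 then stands alone against both high-to-low libraries, of which replicate 1 was the higher in these genes. In replicate 2 of these groups, in that order, FOS was 2.2 and 10.2 FPKM and JUN 1.73 and 2.18 FPKM. JUND was 10.3 and 14.4 FPKM and EGR1 3.04 and 4.68 FPKM. With all 6 libraries the standard errors of the differences were 1.36 for FOS, 1.33 for JUN and 1.15 for EGR1. With the replicate block they were 0.559, 0.717 and 0.513 in that order.

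**Figure D3:**
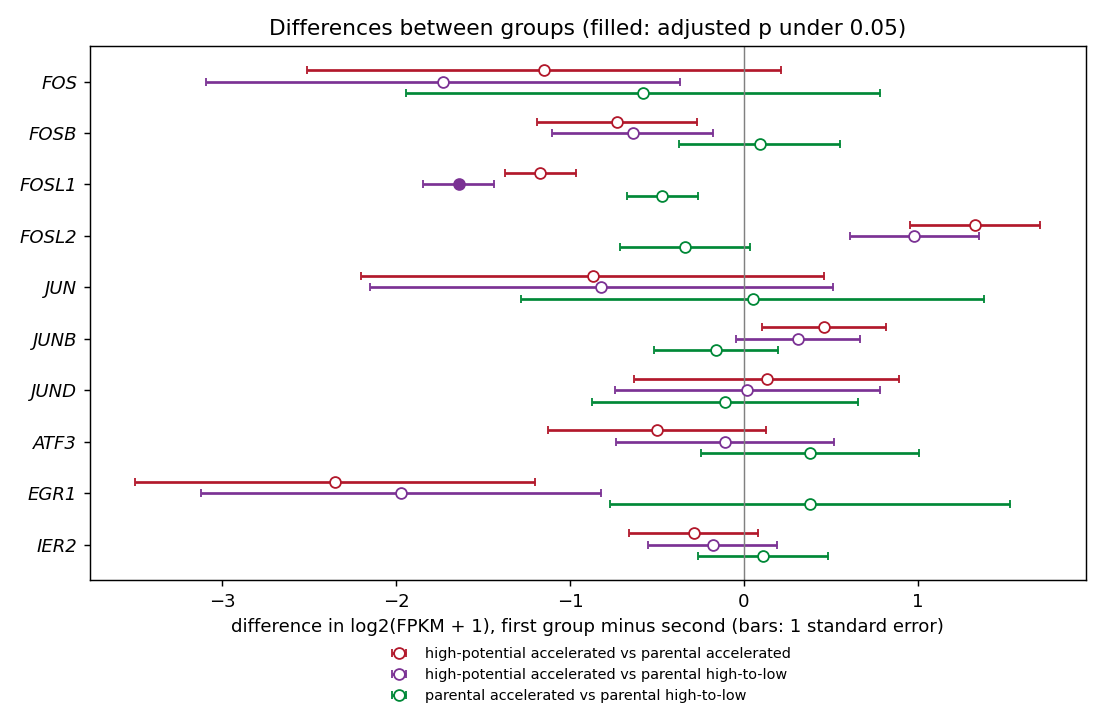
Difference in log2(FPKM + 1) for each gene in the 3 comparisons, first group minus second, with bars of 1 standard error from the limma fit; filled points passed at an adjusted p under 0.05. FOSL1 against high-to-low cells, at -1.64, is the filled point, and FOSL2 lies to the right of 0 in both comparisons of the high-potential cells.

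The libraries of a group stood apart in these genes. In parental accelerated cells 7 of 10 members were at least 1 log2 unit higher in replicate 1 than in replicate 2, where 5.02% of all genes were. In high-to-low cells 5 members were, where 3.68% of all genes were, and in high-potential cells 2 were (FOS and EGR1), where 2.7% of all genes were. FOS, JUN, JUND, ATF3 and EGR1 (5 of 10) had such a gap in both parental groups, as did 1.56% of all genes. FOSB, among the 7 members in parental accelerated cells, passed the filter on low values only through replicate 1 of each parental group. The direction of its gap was thus set by the filter.

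For JUN the gap was 3.54 in parental accelerated and 3.01 in high-to-low cells, widths that 0.552% and 0.486% of kept genes reached in either direction, but 0.42 in high-potential cells. For EGR1 the gaps were 1.26 in high-potential, 3.44 in parental accelerated and 1.70 in high-to-low cells. For FOSL1 they were -0.08, 0.11 and -0.41 in the same order of groups.

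Parental accelerated replicate 1 held the highest and high-to-low replicate 1 the second highest value of the 6 libraries for 7 members (FOS, FOSB, JUN, JUND, ATF3, EGR1 and IER2), an order found for 7.63% of all genes. FOSB passed the filter on low values only through these 2 libraries, so they had to be its 2 highest. ALDH1A1 in these 2 libraries was 26.7 and 28.4 FPKM. High-to-low replicate 2, which had the lowest ALDH1A1, had 10.2 FPKM of FOS, 2.18 of JUN and 4.68 of EGR1, near the levels of parental accelerated replicate 2, whose ALDH1A1 was 317 FPKM, for JUN and EGR1. The order of the 4 parental libraries by JUN was not their order by ALDH1A1. A relation between the 2 genes was not tested in these 4 libraries. The labels do not say what separates replicates 1 and 2; the number in their descriptions starts with 17 for replicate 1 of each group and for high-to-low replicate 2, and with 18 for the other two. High-to-low replicates 1 and 2 share its start, differ in its later digits and differ by 11.2 times in JUN. Only the first 2 digits of the number were used here. With a term for that number the difference between high-potential and high-to-low cells was -0.21 for FOS, against -1.73 without it, and -0.79 for EGR1, against -1.97 without it. The part of that number, or of ALDH1A1, in the gaps was not tested.

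**Figure D4:**
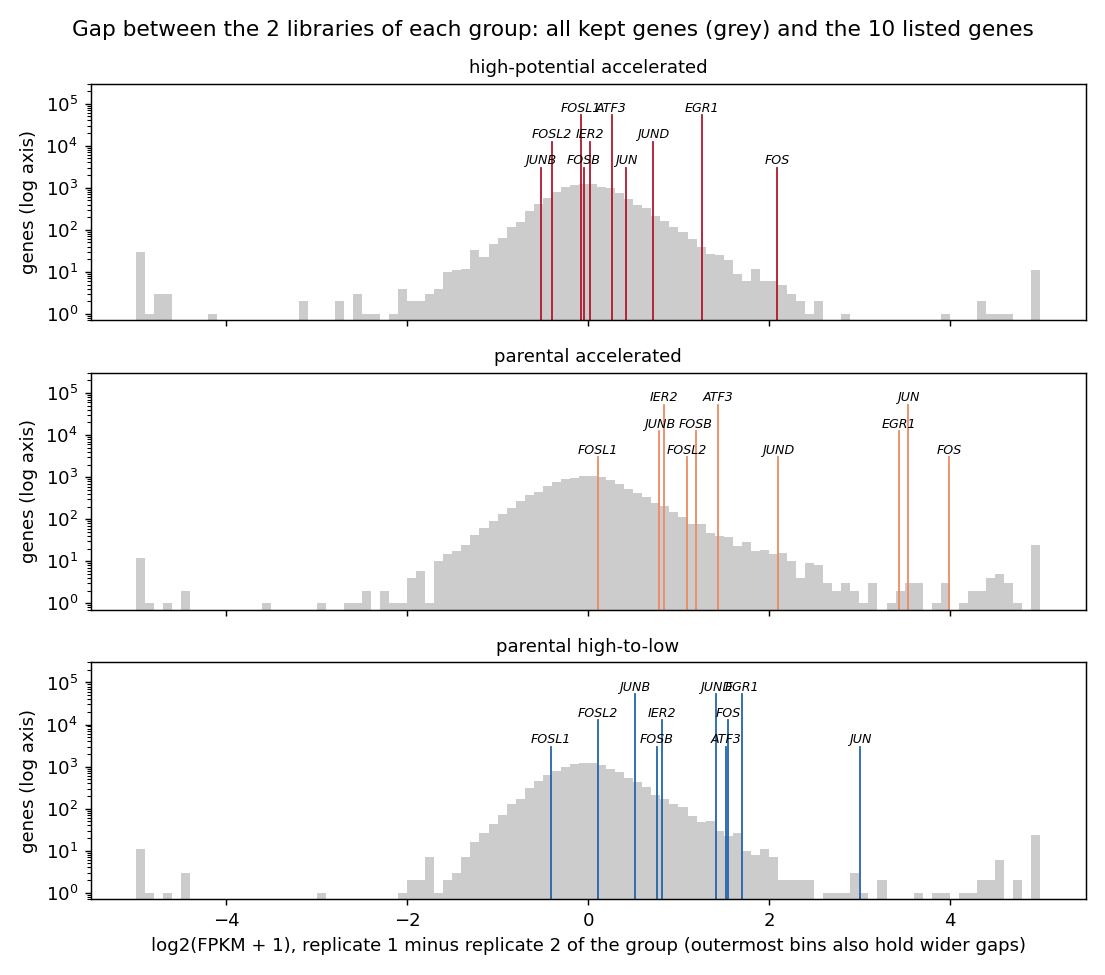
Difference in log2(FPKM + 1) between replicate 1 and replicate 2 of each group on the horizontal axis, with the number of kept genes per bin in grey on a log axis and a line for each of the 10 genes. FOS (3.99), JUN (3.54) and EGR1 (3.44) lie far right in the parental accelerated group, and JUN (3.01) in the high-to-low group.

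Other immediate early genes were read from a list. Of 28 on the list, 21 were kept; 0 passed by limma in any of the 3 comparisons, and 0, 1 and 0 had an unadjusted p under 0.05, beside 14.3%, 18.4% and 0.972% of all genes. Their median differences were -0.08 between high-potential and parental accelerated, -0.09 between high-potential and high-to-low and 0.05 between the parental groups. Replicate 1 was at least 1 log2 unit higher for 1 of 21 in high-potential cells, for 9 in parental accelerated and for 7 in high-to-low cells, beside 2.7%, 5.02% and 3.68% of all genes, and 1 gene was at least 1 lower in high-potential cells. The 7 were among the 9, and are named after their values were seen: NR4A1, NR4A2, ZFP36, BTG1, DUSP1, PPP1R15A and TRIB1. NR4A2 passed the filter on low values only through replicate 1 of each parental group, so the direction of its gaps was set by the filter.

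NR4A1, an orphan nuclear receptor, was 3.25 and 1.46 FPKM in high-potential cells, 8.33 and 0.603 FPKM in parental accelerated cells and 8.24 and 1.47 FPKM in high-to-low cells. DUSP1, the phosphatase that switches off JNK and p38, was 82.0 and 66.3, 113.8 and 12.1, and 90.1 and 27.1 FPKM in the same order of groups. DUSP1 thus stayed high in both high-potential libraries, unlike JUN. ZFP36, which speeds the decay of AU-rich mRNAs, was 9.11 and 7.55, 25.7 and 7.22, and 24.6 and 9.55 FPKM in that order. The most abundant genes of that list, CYR61 and CTGF, secreted matricellular proteins, lacked this pattern: CYR61 was 102.4 and 179.7 FPKM in high-potential cells, 232.0 and 200.1 FPKM in parental accelerated cells and 186.2 and 161.2 FPKM in high-to-low cells, and CTGF was 210.1 and 161.3, 142.9 and 265.2, and 127.1 and 97.9 FPKM in that order.

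The upstream machinery is the kinases and factors that act on the early genes. Of 20 kept genes of this list, 0 passed by limma in any comparison, with 2, 3 and 0 at an unadjusted p under 0.05 (14.3%, 18.4% and 0.972% of all genes) and medians of -0.01, 0.04 and -0.04. With the replicate block 1 fell in high-potential cells against parental accelerated and 2 against high-to-low cells, beside 2.97% and 5.3% of all genes. No kinase or factor of this list had a gap of at least 1 between replicates in either parental group.

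Of 12 kept phosphatases and feedback inhibitors of MAPK signalling, 0 passed by limma, with 2, 3 and 0 at an unadjusted p under 0.05 (14.3%, 18.4% and 0.972% of all genes) and medians of 0.13, 0.27 and 0.08. With the replicate block 2 rose in high-potential cells against parental accelerated and 3 against high-to-low cells, beside 1.53% and 2.48% of all genes. DUSP4, on this list, was 1.45 and 1.94 FPKM in high-potential cells. It passed the filter on low values only through those libraries and had to be higher there. SPRY2, an inhibitor of receptor signalling, was 208.8 and 121.1 FPKM in high-potential cells, 159.7 and 117.2 FPKM in parental accelerated cells and 161.6 and 76.8 FPKM in high-to-low cells. DUSP6, a MAP kinase phosphatase, was 106.2 and 68.2, 132.7 and 90.2, and 139.9 and 95.1 FPKM in that order. Of 17 kept zipper factors beyond the members, 0 passed by limma, with 1, 2 and 0 at an unadjusted p under 0.05 (14.3%, 18.4% and 0.972% of all genes), and 1 fell with the replicate block in each comparison of high-potential cells, beside 2.97% and 5.3% of all genes. ATF4, the amino acid response factor, was the most abundant, at 219.5 and 141.1, 194.0 and 289.1, and 214.8 and 260.6 FPKM, followed by DDIT3, a stress factor, at 110.7 and 50.6, 213.8 and 123.7, and 202.1 and 103.9 FPKM.

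Genes described as AP-1 targets lay on both sides of 0, with median differences of 0.09, 0.01 and -0.09 in the 3 comparisons. Of 19 kept of 31 listed, 1 rose and 1 fell by limma in high-potential cells against parental accelerated ones, beside 0.288% and 0.206% of all genes, and 4 rose and 3 fell with the replicate block, beside 1.53% and 2.97%. Against high-to-low cells 1 rose and 2 fell, beside 0.396% and 0.404% of all genes, and 3 rose and 4 fell with the block, beside 2.48% and 5.3%. Between the parental groups 0 passed. An unadjusted p under 0.05 was found for 7, 8 and 0 of the 19, beside 14.3%, 18.4% and 0.972% of all genes. IL8, a chemokine for neutrophils that NF-kB also drives, rose to 16.3 and 27.8 FPKM in high-potential cells, against 0.979 and 0.0668 FPKM in parental accelerated (limma adjusted p = 0.0248) and 0.679 and 0.130 FPKM in high-to-low libraries (limma adjusted p = 0.0237). FHL2, a LIM protein that binds Fos and Jun, fell to 0.346 and 1.03 FPKM, against 8.48 and 10 FPKM in parental accelerated (limma adjusted p = 0.0237) and 8.72 and 10.4 FPKM in high-to-low libraries (limma adjusted p = 0.0231). CD44, a hyaluronan receptor, fell to 7.54 and 4.72 FPKM, against 25.9 and 41.1 FPKM in high-to-low libraries (limma adjusted p = 0.044), with 22.6 and 18.2 FPKM in parental accelerated libraries (limma adjusted p = 0.106). IL8 passed the filter on low values only through the high-potential libraries and had to be higher there. These calls were fragile: each of the 3 genes was lost in at least 1 comparison without 1 of the libraries compared, and without the filter on low values, and the alternatives spanned limma adjusted p values of 0.0134 to 0.147 for IL8, 0.00643 to 0.168 for FHL2 and 0.0209 to 0.302 for CD44 against high-to-low cells. All 3 kept their signs where they were tested; without either high-potential library IL8 fell below the filter and was not. The matrix metalloproteinase genes MMP1, MMP3, MMP7, MMP10 and MMP13 are listed at 0 in each library. The most abundant targets were SPP1 (osteopontin), at 1322.4 and 2050.1, 2448.8 and 2675.8, and 2486.5 and 2253.9 FPKM, and MT2A, a metallothionein, at 720.5 and 1060.0, 375.7 and 591.9, and 505.3 and 833.2 FPKM in the same order of groups.

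Of 11 kept genes listed as EGR1 targets 0 passed by limma in any comparison, with 3, 4 and 0 at an unadjusted p under 0.05 (14.3%, 18.4% and 0.972% of all genes), and 1 rose against high-to-low cells with the replicate block (2.48% of all genes). SOD1, superoxide dismutase, was 409.9 and 481.0, 280.1 and 494.0, and 289.6 and 381.0 FPKM, and ICAM1, an adhesion receptor, 153.6 and 81.6, 50.4 and 66.8, and 54.9 and 21.5 FPKM. Heat shock genes, which handling of cells can induce, were read beside the members: 0 of 12 passed by limma, with 0, 1 and 0 at an unadjusted p under 0.05 (14.3%, 18.4% and 0.972% of all genes). In parental accelerated cells 7 of 12 were higher in replicate 1, with a median gap of 0.05. HSPA1A, HSPA1B, HSPA6 and DNAJB1 (4 of 12, beside 5.02% of all genes) were at least 1 log2 unit higher there, whereas HSPE1, with 104.7 FPKM in replicate 1 and 240.3 FPKM in replicate 2, was at least 1 lower. In high-potential cells 1 of 12 (HSPA6) was at least 1 higher, and in high-to-low cells 0 were. HSPA1B was 25.2 and 29.1 FPKM in high-potential cells, 76.5 and 13.1 FPKM in parental accelerated cells and 69.2 and 37.0 FPKM in high-to-low cells. The most abundant genes of the list were HSPA8, a constitutive chaperone, at 857.4 and 1028.7, 769.5 and 633.7, and 863.3 and 1193.0 FPKM, and HSP90AB1 at 720.6 and 1017.5, 652.0 and 925.8, and 685.9 and 1136.7 FPKM in the same order of groups. Their part in the pattern of the early genes was not tested.

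Genes whose profile over the 6 libraries was most like that of FOSL1 were TRAP1 (59.0 and 63.0, 161.9 and 140.4, and 183.4 and 219.4 FPKM), EARS2 and MRPL40. Likeness was the root mean square difference of centred log2(FPKM + 1) values over 6 libraries among 10095 other genes with a mean of at least 3 FPKM. It was 0.0717 for TRAP1, a mitochondrial chaperone, 0.0805 for EARS2, a mitochondrial glutamyl-tRNA synthetase, and 0.122 for MRPL40, a mitochondrial ribosomal protein, beside a median of 0.737. The genes were picked for the smallest values, so their likeness was fixed by the choice. A function shared among them was not tested.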

How the data were processed

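TopHat2 2.0.13, Cuffnorm 2.2.1 and build hg19 are named in the submitters' processing notes; no annotation is named in the sources used here. Amplified cDNA (SMART-Seq v4) was made into Nextera libraries, per the labels' protocols. The authors deposited 1 FPKM value per gene symbol and library. Median ratio factors of these values were 1.01 in each of the 6 libraries. FPKM are not counts, so values were transformed to log2(FPKM + 1) and fitted with limma 3.58.1 (R 4.3.3) with a variance trend, using the 3 group means of the 6 libraries, which leaves 3 residual degrees of freedom, after the filter on low values. Calls used a two-sided Benjamini-Hochberg adjusted p under 0.05 over 12135 genes. The limma step was tested on simulated data.

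Depth was estimated from values under 0.3 FPKM; fragments per member use the longest coding transcript of GENCODE 29 and are approximate. Same-numbered libraries of different groups deviated together: correlations across genes were 0.187 (high-potential and parental accelerated), 0.158 (high-potential and high-to-low) and 0.281 (parental groups). No label calls this a pairing.

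All 10 members are named; from the lists, the 2 most abundant genes and those that passed, except for the upstream list, whose most abundant genes are not reported here; beside FOSL1, the 3 genes most like it. Genes named for a gap between replicates, DUSP4, the MMP genes listed at 0 and the genes most like EGR1, FOS and JUN were chosen after their values were seen. Members and lists were chosen with earlier results of these data known.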

Additional observations from a re-analysis of the deposited data

How the results depend on the processing

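Between high-potential and parental accelerated cells 60 genes passed; 31 did with a pseudocount of 0.1, 38 without the filter, 105 with a term for the description number (17 or 18) and 546 with the replicate block, under which 1 of the 10 members, FOSL1, passed in place of 0. Against high-to-low cells 97 genes passed, and 54, 39, 54 and 944 did under these settings in the same order, and the 1 member called became 0 without the filter and 0 with the description number. Between the parental groups 2 genes passed, against 4 with a pseudocount of 0.1, 0 without small RNA genes, 7 with the description number and 7 with only those groups fitted. The replicate block changed no other call of a member. Median ratio scaling and leaving out the variance trend moved no count by more than 1.5 times.

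Without 1 library at a time the counts were 4 to 39, 3 to 129 and 2 to 7 in the 3 comparisons, and the members called against high-to-low 0 to 1; the lone library was then assumed to vary like the other groups. Signs turned for members that did not pass. Against parental accelerated cells the ranges were -3.14 to 0.85 for FOS, -2.64 to 0.90 for JUN, -0.93 to 1.18 for JUND, -1.22 to 0.22 for ATF3 and -0.71 to 0.13 for IER2. Against high-to-low cells they were -2.33 to 0.68 for JUN, -0.69 to 0.73 for JUND, -0.88 to 0.65 for ATF3 and -0.59 to 0.23 for IER2. Between the parental groups they were -2.57 to 1.41 for FOS, -0.29 to 0.68 for FOSB, -0.89 to 0.20 for FOSL2, -1.72 to 1.82 for JUN, -0.55 to 0.24 for JUNB, -1.16 to 0.94 for JUND, -0.38 to 1.15 for ATF3, -1.34 to 2.10 for EGR1 and -0.31 to 0.53 for IER2. With the description number JUN was 0.17, ATF3 0.31 and IER2 0.04 against high-to-low, and FOS 0.94 and JUND 0.60 between the parental groups; with a pseudocount of 0.1 FOSB was -0.02 there. FOSL1 kept its sign in all settings and comparisons. The cause of these changes was not tested.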

Other observations

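The genes with profiles most like those of EGR1, FOS and JUN were looked up after their values were seen, by the same measure as for FOSL1. For JUN they were CLDN4, a tight junction claudin (10.4 and 7.60 FPKM in high-potential cells, 52.5 and 3.47 FPKM in parental accelerated cells and 43.6 and 10.1 FPKM in high-to-low cells), HES1, a Notch target (28.1 and 15.5, 84.5 and 17.7, and 77.0 and 12.9 FPKM), and CFB, complement factor B (22.8 and 11, 55.6 and 3.47, and 65.6 and 11.2 FPKM). For FOS they were PRODH2, C19orf77 and RIPK4, and for EGR1 they were C1orf54, TNFSF10 and APOM. TNFSF10, the death ligand TRAIL, was 0.797 and 1.06 FPKM in high-potential cells, 15.9 and 2.13 FPKM in parental accelerated cells and 15.9 and 3.47 FPKM in high-to-low cells. Likeness to these genes fixed which libraries are high.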
